A study of Bos taurus with 16 samples.

Results

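The miR-365 and miR-193 microRNA genes are neighbours in the genome, and 2 of 204 miRNA probes read them in corpora lutea from pregnant cattle. One probe, miR-365a-3p+miR-365b-3p, takes its double name from the 3p strands of both miR-365 copies and is called the miR-365 probe here. The other, miR-193a-5p+miR-193b-5p, reads the 5p strands of both miR-193 copies and is called the miR-193-5p probe. Both were picked by name, as genomic neighbours whose values were higher on day 23, so their day 23 levels are given below as a description and are not tested. One further probe reads miR-193a-3p, the opposite strand of miR-193a, and is described beside them.

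The 16 glands came from pregnant cattle, 4 on each of day 14, day 17, day 20 and day 23 after a natural mating that was followed by artificial insemination. All 4 groups were pregnant, no other treatment is named, and only the day differs between them; the labels give neither breed nor age. RNA from whole glands was counted on the NanoString platform, in which coloured probes are hybridised to RNA and counted without amplification. Samples were processed in 2 runs of 8, and replicates 1 and 2 of every day were in run 1 and replicates 3 and 4 in run 2. The values are the authors' normalized counts, and whole-gland RNA cannot separate fewer cells of a type from less RNA per cell.

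The corpus luteum is the gland that forms on the ovary after ovulation and makes the progesterone that maintains pregnancy. A miRNA is cut from a hairpin RNA as a 5p and a 3p strand, and either strand can be loaded into a silencing complex that pairs with messenger RNAs, mainly through the seed bases near its start. miR-365 and miR-193 come from separate hairpins and carry different seeds, but mammals keep their genes side by side in a pair of copies, one with miR-193a and one with miR-193b. The miR-193b and miR-365 cluster is best known from mouse brown fat cells, where it was linked to their differentiation. The 3p strand of miR-193 has mostly been studied for its effect on growth of tumour cells.

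In the RefSeq gene table of the cattle assembly ARS-UCD2.0, MIR193B and MIR365-1 are next to each other with 0 genes between them. One long non-coding RNA gene, LOC100849865, covers both, and the protein-coding genes on either side are MRTFB and PARN. MIR365-2 and MIR193A lie on another chromosome with 1 gene between them, the miRNA gene MIR2333, between the protein-coding genes COPRS and RAB11FIP4. One more miR-193 gene, MIR193A-2, lies on yet another chromosome with no miR-365 gene beside it in the table. Neither probe can tell its copies apart, so the miR-365 values below can come from either place in the genome, and the miR-193-5p values from these or from MIR193A-2.

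Column totals were 175197 to 536516 normalized counts, with 175197 to 331164 in run 1 and 373847 to 536516 in run 2. Low values of a column lay on evenly spaced steps, and 1 step was worth 0.665 to 1.37 normalized counts in run 1 and 0.799 to 2.91 in run 2. The miR-193-5p values were 194 to 879 steps high and the miR-365 values 1008 to 3507, so they lay well clear of the spacing of the table. The steps had an offset, original counts were not recovered, and no counting interval is given. No probe among the 204 marks luteal steroid-making cells by itself. The ovarian miRNAs known to respond to gonadotropins, miR-132-3p, miR-21-5p and miR-212-3p, were all measured and summed to 1588 to 8690 normalized counts on day 14 and 1690 to 4215 on day 23. They did not share a direction. With run held, their log2 differences of day 23 from day 14 were -0.56 for miR-21-5p, 0.02 for miR-132-3p and 0.33 for miR-212-3p, given with no test.

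The miR-365 probe was among the brighter ones of the panel. Over all samples it averaged 2464 ± 1568 normalized counts (SD, n = 16) and ranked from 12 to 42 of 204 by value within a sample. It made up 0.366% to 1.37% of each column's total. The miR-193-5p probe was dimmer, at 560 ± 422 normalized counts (SD, n = 16), and ranked from 34 to 112. Probes differ in how well they capture their target, so the difference between these levels is not a ratio of molecules.

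How far each probe stood above nonspecific signal was read from the 38 probes for which no bovine miRNA gene of the same name or number is listed. The miR-365 probe lay above 37 of the 38 in 15 samples and above 35 in day 14 replicate 1. It was 3.79 to 29.3 times the median of those probes in run 1 and 29.6 to 82.8 times in run 2. The miR-193-5p probe was close to them in run 1, at 1.07 to 5.44 times their median and above 21 to 35 of the 38. In run 2 it was 6.59 to 21.4 times their median and above 34 to 37. The median of these probes itself was 124 to 258 normalized counts in run 1 and 40.4 to 88.8 in run 2. Low miR-193-5p values of run 1 therefore sit in the range of probes that have no listed target, and how much of them was nonspecific signal was not tested.

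**Figure D1:**
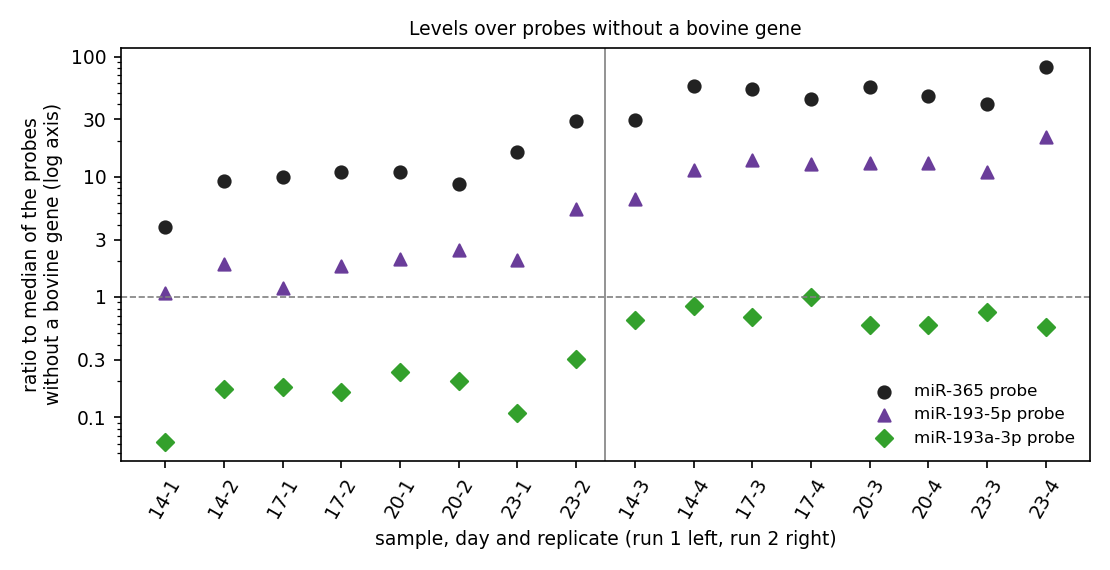
Ratio of each probe to the median of the 38 probes without a listed bovine gene, on a log axis, for each sample named by day and replicate, with run 1 left of the line and run 2 right of it. The miR-365 probe lies at 3.79 or more in every sample, the miR-193-5p probe falls to 1.07 in run 1, and the miR-193a-3p probe is below 1 in all 16 samples.

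The values of the miR-365 probe on day 14 were 977 and 1700 normalized counts in run 1 and 1477 and 2401 in run 2. On day 17 they were 1228 and 1745 in run 1 and 3701 and 1788 in run 2. On day 20 they were 1446 and 1248 in run 1 and 3397 and 2303 in run 2. These 3 days overlapped widely, and on days 17 and 20 both run 2 samples lay above both run 1 samples. On day 23 the values were 2411 and 3799 in run 1 and 2453 and 7348 in run 2. All 4 day 23 values lay above all 4 of day 14, by a narrow margin of 2411 over 2401, and they overlapped those of days 17 and 20. Such a gap between days 14 and 23 was seen for 2 of 204 probes (0.98%); the members were chosen on this contrast.

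The values of the miR-193-5p probe on day 14 were 277 and 344 normalized counts in run 1 and 329 and 484 in run 2. On day 17 they were 147 and 291 in run 1 and 949 and 517 in run 2. On day 20 they were 273 and 350 in run 1 and 795 and 637 in run 2. Days 17 and 20 were again split by run, with no such split on day 14. On day 23 the values were 304 and 705 in run 1 and 658 and 1903 in run 2. Day 23 overlapped each of the other days, since its lowest sample, replicate 1 at 304, lay below the 344 of day 14 replicate 2 in the same run.

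**Figure D2:**
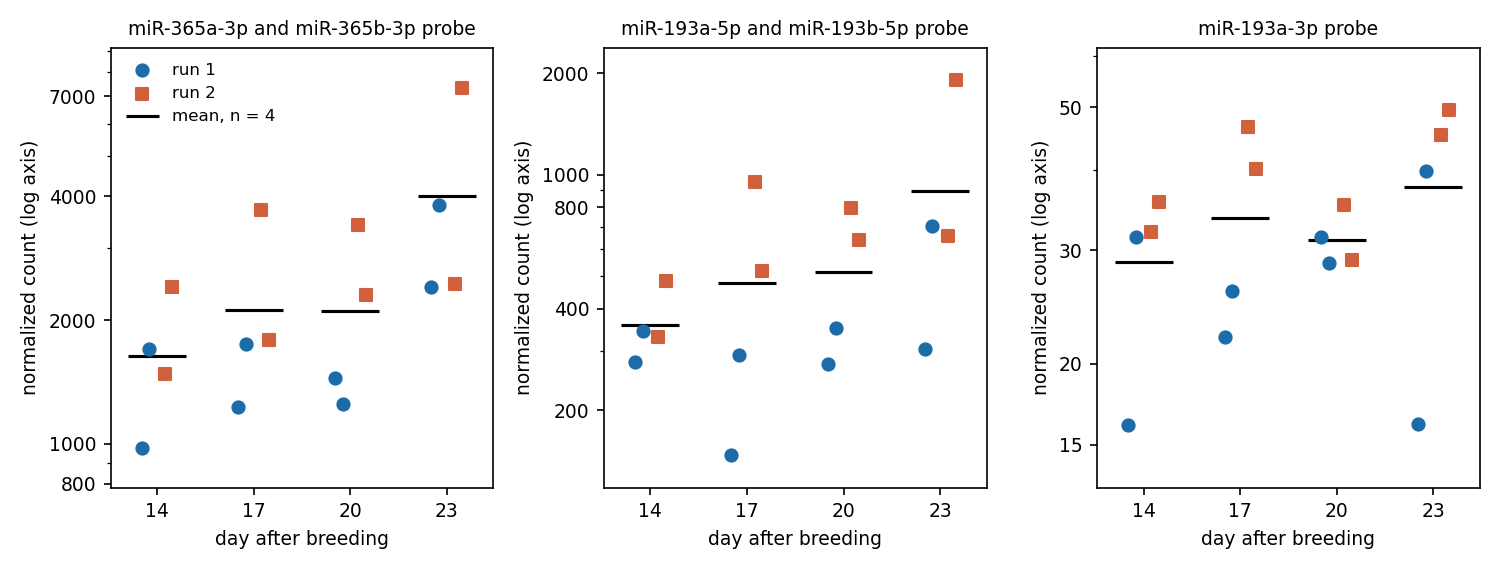
Normalized counts (log axis) of the miR-365, miR-193-5p and miR-193a-3p probes by day after breeding, 1 point per sample, circles for run 1 and squares for run 2, with a bar at the mean of the 4 samples. Day 23 replicate 4, a run 2 sample, is the highest point of the first 2 panels, at 7348 and 1903.

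The mean of the miR-365 probe (± SD, n = 4) was 1639 ± 591 normalized counts at day 14 and 2115 ± 1087 at day 17, then 2099 ± 980 at day 20 and 4003 ± 2322 at day 23. That of the miR-193-5p probe was 358 ± 88.6 at day 14 and 476 ± 350 at day 17, then 514 ± 244 at day 20 and 892 ± 697 at day 23. Both probes had their lowest mean on day 14 and their highest on day 23. The means of days 17 and 20 lay close together, and neighbours in this order from day 14 to day 20 differed by less than the SD of the later day. Within run 1 the order broke for the miR-193-5p probe, which averaged 310 on day 14 and 219 on day 17.

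The comparisons among days 14, 17 and 20 do not hold day 23 and were tested with limma on log2(normalized count + 1), with run held and p-values adjusted over all 204 probes. Neither probe passed the test between any 2 of these days. Day 17 against day 14 gave a log2 difference of 0.32 (SE 0.33, 95% interval -0.37 to 1.01, adjusted p = 0.963) for the miR-365 probe. For the miR-193-5p probe it gave 0.12 (SE 0.37, 95% interval -0.65 to 0.89, adjusted p = 0.963). No probe at all was called there (0 of 204, 0%), with 5 (2.45%) under an unadjusted p of 0.05 by limma. Differences as large as the upper ends of these intervals were not excluded.

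Day 20 against day 14 gave 0.32 (SE 0.33, 95% interval -0.37 to 1.01, adjusted p = 0.801) for the miR-365 probe and 0.42 (SE 0.37, 95% interval -0.35 to 1.19, adjusted p = 0.744) for the miR-193-5p probe by limma. Again 0 of 204 probes (0%) were called, with 13 (6.37%) under an unadjusted p of 0.05. The runs were unlike here. The miR-365 probe differed by 0.06 within run 1 and by 0.57 within run 2, and the miR-193-5p probe by 0.0038 and 0.83. Day 20 against day 17 gave -0.0014 (SE 0.33, 95% interval -0.69 to 0.69, adjusted p = 0.997) for the miR-365 probe and 0.30 (SE 0.37, 95% interval -0.47 to 1.07, adjusted p = 0.972) for the miR-193-5p probe, with 0 of 204 probes (0%) called and 1 (0.49%) under an unadjusted p of 0.05. For day 17 against day 14 the miR-193-5p probe pointed in opposite directions in the runs, at -0.57 in run 1 and 0.81 in run 2. Whether the day differences depended on the run was not tested.

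Day 23 stood highest for both probes, which is how they were chosen. With run held, the log2 difference of day 23 from day 14 was 1.20 (SE 0.33), or 2.30-fold, for the miR-365 probe and 1.04 (SE 0.37), or 2.05-fold, for the miR-193-5p probe. From day 17 it was 0.89 (SE 0.33) and 0.92 (SE 0.37), and from day 20 it was 0.89 (SE 0.33) and 0.62 (SE 0.37). Against day 14 these differences were the 2nd and 5th highest of 204 probes, whose median was 0.00096. In run 1 the day 23 difference from day 14 was 1.23 for the miR-365 probe and 0.58 for the miR-193-5p probe, and in run 2 it was 1.17 and 1.49. The 3 comparisons share the day 23 samples.

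**Figure D3:**
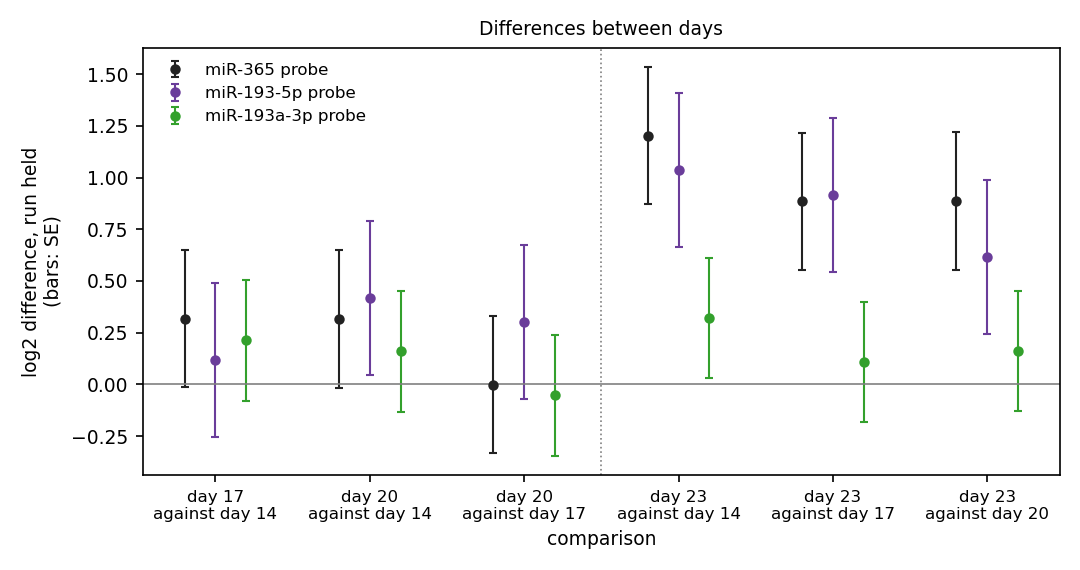
Log2 difference between days with run held for the 3 probes, with bars showing SE, for the pairs without day 23 on the left of the dotted line and those with day 23 on the right. Against day 14, the day 23 points lie at 1.20 and 1.04 for the probes chosen as higher on that day and at 0.32 for the miR-193a-3p probe.

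The day 23 values were highest in 2 samples, replicate 2 in run 1 and replicate 4 in run 2. They held the highest miR-365 and miR-193-5p values of their runs, and their columns also had the widest step between low values, 1.37 normalized counts in run 1 and 2.91 in run 2. For the miR-365 probe in run 1, day 23 replicate 1 at 2411 also lay above every value of days 14, 17 and 20. The highest of those was 1745. Leaving out the 2 columns with the highest values lowers the day 23 level by construction. Without these columns, the log2 difference of day 23 from day 14 was 0.64 (SE 0.37) for the miR-365 probe and 0.35 (SE 0.40) for the miR-193-5p probe. From day 17 it was 0.33 (SE 0.37) and 0.23 (SE 0.40), and from day 20 it was 0.33 (SE 0.37) and -0.07 (SE 0.40). With log2 step as a covariate and all samples kept, the difference from day 14 was 0.94 (SE 0.30) and 0.75 (SE 0.35), that from day 17 was 0.26 (SE 0.37) and 0.24 (SE 0.42), and that from day 20 was 0.61 (SE 0.31) and 0.32 (SE 0.35). The mean step was 1.15 normalized counts on day 14, 0.825 on day 17, 1.17 on day 20 and 1.57 on day 23. These settings were chosen after the data were seen, and the part of the step in the day 23 level was not tested further.

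**Figure D4:**
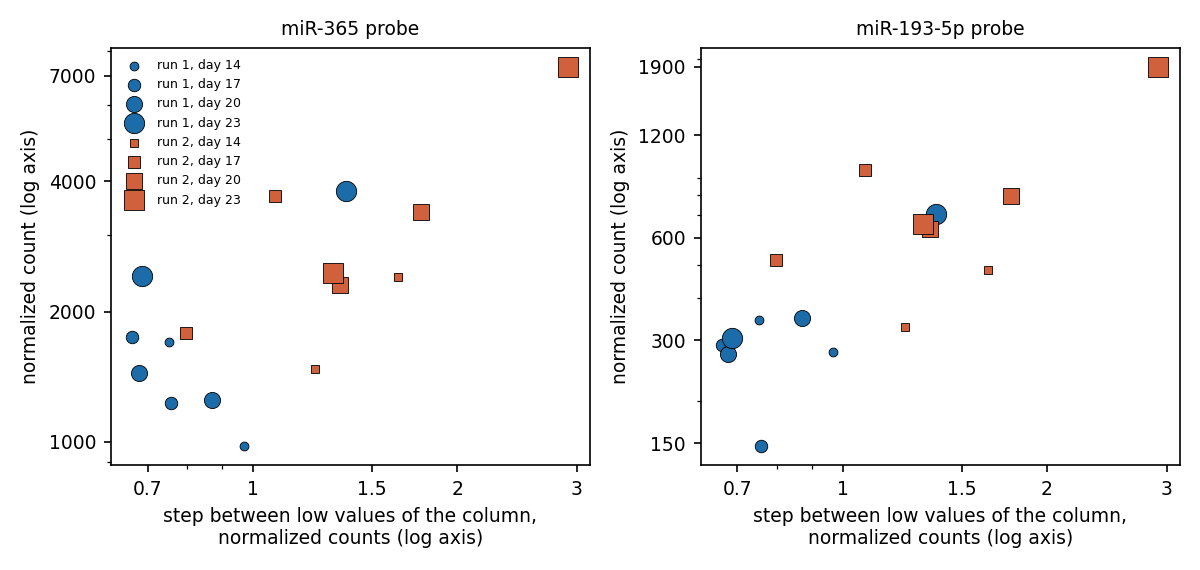
Normalized counts of the miR-365 probe (left) and the miR-193-5p probe (right) against the step between low values of the same column, both on log axes, 1 point per sample, circles for run 1, squares for run 2, and larger symbols for later days. The day 23 samples with the widest step of each run, 1.37 and 2.91, hold the highest value of their run on both panels.

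Markers of other cell types differed in direction on day 23 against day 14, and these differences are given with no test. All 4 leukocyte miRNAs measured, of 4 listed, were below their day 14 value, with a median log2 difference of -0.70 beside 0.00096 over all probes, and summed to 904 to 4098 normalized counts on day 14 and 1030 to 1832 on day 23. The endothelial miR-126-3p, 1 of 2 markers listed, was at -0.46 (7633 to 29140 on day 14 and 7318 to 16446 on day 23). The erythrocyte miR-451a, 1 of 2 listed, was at -1.04 (206 to 1877 and 132 to 367). The 2 smooth muscle markers, of 2 listed, went opposite ways, with miR-145-5p at 0.50 (SE 0.24) and miR-143-3p at -0.50 (SE 0.37). The stromal list (3 of 3) had a median of 0.10, from -0.18 for miR-199a-3p+miR-199b-3p to 0.28 for miR-214-3p. The epithelial miR-141-3p, 1 of 3 listed, was at 0.29, with 42.8 to 56.9 normalized counts on day 14 and 45.7 to 87.3 on day 23. No marker measured was at 0. The values of miR-141-3p on these days lay within or below the range of the medians of the probes without a bovine gene. These medians were 124 to 258 in run 1 and 40.4 to 88.8 in run 2. In day 14 replicate 4 the probe was above this median, which was 42.2 there. It was thus near the floor. The part of the markers in the day 23 levels was not tested.

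The miR-193a-3p probe reads the other strand of miR-193a. By name it matches both MIR193A and MIR193A-2, which it cannot tell apart. It was near the floor of the table. It averaged 32.8 ± 9.98 normalized counts (SD, n = 16) and lay above 0 to 18 of the 38 probes without a bovine gene. Its day 14 values were 16.1 and 31.5 normalized counts in run 1 and 32.0 and 35.7 in run 2. Its day 23 values were 16.2 and 39.8 in run 1 and 45.2 and 49.4 in run 2, which overlap day 14. Its day 23 difference from day 14 was 0.32 (SE 0.29) on the log2 scale. It was not called for any pair among days 14, 17 and 20 (differences of -0.05 to 0.21, limma adjusted p of 0.866 to 0.972). No other strand of these hairpins was among the 204 probes.

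Both probes read higher in run 2. The miR-365 probe differed by 0.73 on the log2 scale (SE 0.23, limma adjusted p = 0.00793), from 1819 ± 911 normalized counts (SD, n = 8) in run 1 to 3109 ± 1867 in run 2. The miR-193-5p probe differed by 1.15 (SE 0.26, limma adjusted p = 0.000684), from 336 ± 161 to 784 ± 490. The miR-193a-3p probe differed by 0.59 (SE 0.21, limma adjusted p = 0.0134). Most probes did so: 83.3% of the 204 were called (84.8% under an unadjusted p of 0.05), 66.2% as higher and 17.2% as lower in run 2, and the median difference over all probes was 0.74. The miR-365 probe thus ranked 105th of 204 in this comparison and the miR-193-5p probe 13th. Neither had all 8 run 2 values above all 8 run 1 values, which 13.2% of the probes had.

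The run difference lost its call under other scalings. With the sample median subtracted it was 0.45 (SE 0.23, limma adjusted p = 0.0842) for the miR-365 probe, and the miR-193-5p probe kept its call at 0.87 (SE 0.26, limma adjusted p = 0.00782). After the mean of the probes with a bovine gene was subtracted from each sample, it was 0.05 (SE 0.23, limma adjusted p = 0.879) for the miR-365 probe and 0.48 (SE 0.28, limma adjusted p = 0.206) for the miR-193-5p probe. After quantile normalization it was -0.17 (limma adjusted p = 0.606) and 0.62 (adjusted p = 0.0923). With log2 step as a covariate it was 0.09 (limma adjusted p = 0.798) and 0.46 (adjusted p = 0.251).

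Whether the probes varied together was read from differences between the 2 samples of one day and run, which leave out the day levels that chose them. In run 1 the second sample minus the first differed by 0.80 on the log2 scale for the miR-365 probe and 0.31 for the miR-193-5p probe on day 14, and by 0.51 and 0.98 on day 17. On day 20 of run 1 the signs were opposite, at -0.21 and 0.36, and on day 23 the differences were 0.66 and 1.21. In run 2 they were 0.70 and 0.56 on day 14, -1.05 and -0.87 on day 17, -0.56 and -0.32 on day 20, and 1.58 and 1.53 on day 23. The probes moved the same way in 7 of 8 pairs of samples, and in run 2 by nearly the same amount.

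The correlation about 0 of these 8 differences was 0.90 (exact sign-flip permutation, two-sided p = 0.0156, where 0.00781 is the smallest possible). This p draws on the day 23 pairs and so is not independent of how the probes were chosen. On signed ranks, which are ranks of the absolute differences with their signs put back, the correlation about 0 was 0.82 (exact sign-flip p = 0.0156). Without the 2 pairs farthest from the median of the miR-365 differences, the correlation of the differences themselves was 0.89 (exact sign-flip p = 0.0625, where 64 arrangements can reach 0.0312). Without the day 23 pairs it was 0.83 (exact p = 0.0625), a design that can reach 0.0312. It was 0.77 over the 4 pairs of run 1 and 0.99 over the 4 pairs of run 2, where no p under 0.125 is possible. Levels over the 8 samples of a run correlated at Pearson 0.73 and Spearman 0.60 in run 1, and at 0.97 and 0.93 in run 2. These values include the day levels by which the probes were chosen and carry no test.

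**Figure D5:**
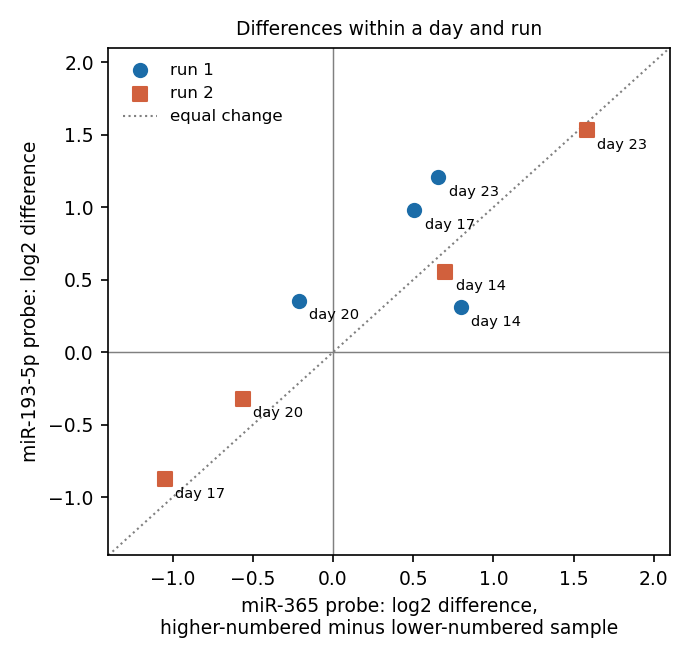
Log2 difference between the 2 samples of one day and run, higher-numbered minus lower-numbered, for the miR-365 probe (horizontal axis) and the miR-193-5p probe (vertical axis), with 8 points labelled by day, circles for run 1 and squares for run 2. The run 2 points lie along the dotted line of equal change, and only day 20 of run 1 has opposite signs, at -0.21 and 0.36.

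The scale of a column moved with both probes as well. Over the same 8 pairs, differences in log2 step correlated with those of the miR-365 probe at 0.70 and of the miR-193-5p probe at 0.80, ranks 22 and 7 of 204 probes, whose median was 0.10. The log2 column total correlated at 0.50 and 0.51 with them. With the differences in log2 step regressed out of both, the correlation of the miR-365 probe with the miR-193-5p probe was 0.79 (same direction in 6 of 8 pairs), and with the mean of the probes with a bovine gene subtracted from each sample it was 0.90.

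Over the 8 pairs, differences of the miR-193a-3p probe correlated at 0.61 with those of the miR-365 probe (same direction in 8 of 8) and at 0.62 with those of the miR-193-5p probe (7 of 8). This probe lay below the median of the 38 probes without a bovine gene in all 16 samples, so these values are given as a description.

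As a description, the pair was set beside other pairs of probes on the same measure. Of all 20706 pairs of probes, 98.9% had a lower correlation than 0.90, with a median of 0.04. The miR-365 and miR-193-5p pair is itself 1 of 49 pairs of probes whose bovine genes are consecutive miRNA genes at most 50000 bases apart. Their median was 0.51, and 3 were higher than this pair. These were miR-450a-5p with miR-542-3p at 0.93, miR-195-5p with miR-497-5p at 0.91 and let-7e-5p with miR-125a-5p at 0.90. With the mean of the probes with a bovine gene subtracted, 0 of the 49 were higher. All pairs share the same 16 samples and their column scales.

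Some probes from other places in the genome were more like each of the 2 than they were like each other. By Pearson's r over 16 samples of log2 values centred within run, the probes most like the miR-365 probe were miR-423-3p at 0.94, miR-181a-5p at 0.93, miR-1306-5p at 0.93, miR-331-3p at 0.92 and miR-423-5p at 0.91. The miR-193-5p probe was 8th of 203 for it, at 0.87. For the miR-193-5p probe the nearest was miR-92a-3p at 0.97, followed by miR-423-5p at 0.90, miR-423-3p at 0.89, the miR-365 probe at 0.87 and miR-197-3p at 0.85. Both strands of miR-423 were thus near the top for both. This measure includes the day levels and the column scales, which all of these probes share.

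The ratio of the miR-365 to the miR-193-5p value was 3.46 to 8.36 over the 16 samples. Its log2 value (mean ± SD, n = 4) was 2.15 ± 0.23 at day 14 and 2.35 ± 0.58 at day 17, then 2.04 ± 0.27 at day 20 and 2.31 ± 0.51 at day 23. The day means differed by less than the SD of days 17 and 23. Days accounted for 14.4% of the spread within runs, a value that holds day 23 and is given as a description. It was 8.01% without day 20 replicate 2 and 22.4% without day 17 replicate 4. Over days 14, 17 and 20 alone, a setting chosen after the data were seen, days accounted for 14.5% (exact permutation of days within each run, 8100 arrangements, p = 0.549), which did not pass the test. Within a single run, where each day has only 2 samples, the share was 62.8% in run 1 and 73.5% in run 2. With so few samples large shares arise easily. Both values hold day 23 and are not read as a difference between days. On day 17 the log2 ratio averaged 2.82 in run 1 and 1.87 in run 2, where day 14 averaged 2.06 and 2.24. By run, the ratio averaged 2.42 ± 0.46 (SD, n = 8) in run 1 and 2.00 ± 0.17 in run 2, a difference of -0.42 (exact permutation of runs within days, p = 0.0478, adjusted over the 3 ratio tests computed 0.144). This did not pass the adjustment.

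Other miRNAs known from fat cells and their thermogenic forms in mouse, 25 listed of which 18 were measured, were set beside the cluster. None was called among days 14, 17 and 20 (0 of 18 in each pair by limma, with 0% of all probes called and the unadjusted counts given above). On day 20 against day 14, 14 of 18 were above 0, beside 51.5% of all probes. The median was 0.21 beside 0.01 over all probes, from miR-106b-5p at -0.24 (SE 0.26) to miR-34a-5p at 0.43 (SE 0.29). On day 17 against day 14, 11 of 18 were above 0, beside 51.5% of all probes. The median was 0.10 beside 0.01, from miR-378g at -0.64 (SE 0.33) to miR-143-3p at 0.57 (SE 0.37). On day 20 against day 17, 10 of 18 were above 0, beside 56.4% of all probes. The median was 0.07 beside 0.04, from miR-455-5p at -0.46 (SE 0.31) to miR-378h at 0.49 (SE 0.26). In run 2 against run 1, 16 of 18 were called higher, beside 66.2% of all probes. On day 23 against day 14 the list had a median of 0.11, with 12 of 18 above 0 beside 50% of all probes, from miR-155-5p at -0.75 (SE 0.27) to miR-328-3p at 1.10 (SE 0.36). The miR-365 and miR-193-5p probes stood at 1.20 and 1.04, so the highest list member lay between them, followed by miR-27b-3p at 0.82 (SE 0.24).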

How the data were processed

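The table deposited by the authors holds a non-negative signal for 204 miRNA probes in 16 columns, which the authors called normalized counts; all columns were matched to samples by title. The counting software, panel, background correction, normalization and genome build are not stated by the labels or the file header. Probes carry human names and were matched by name to the 1032 miRNA genes of the RefSeq table of ARS-UCD2.0, from which no coordinates are given.

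Values were transformed as log2(value + 1). All 204 probes passed a filter of 20 in at least 4 samples. limma 3.58.1 in R 4.3.3 (lmFit, eBayes with trend) fitted day and run to all 16 samples, with Benjamini-Hochberg adjustment over all probes and a threshold of 0.05. Exact permutation tests used Python 3.11.15. The fit and the pair test were tested on simulated data. Named probes are the 2 members, miR-193a-3p, the 5 probes most like each member, and list members at the ends of a comparison. The members and lists were chosen with earlier results of these data known. The design text gives 4 pregnant animals a group without tying each sample to one, and p-values measure the spread between these samples.

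Deviations from the day means correlated over 0.1 in 24 of 24 pairs of samples that share a replicate number (median r of 0.67). Samples of the same run with another number had a median r of 0.63. With run removed as well, 9 of 24 pairs were over 0.1. Their median r was -0.08, beside -0.26 for samples of the same run with another number. The number was taken to stand for the run, and whether it also pairs samples was not tested. Alternatives changed the pseudocount, scaling, filter, run term, variance trend and samples.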

Additional observations from a re-analysis of the deposited data

Results flagged for a closer look

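In run 2, day 23 replicate 4 stood far above the other 7 samples for the miR-365 probe, at 7348 normalized counts, and for the miR-193-5p probe, at 1903. In run 1, day 23 replicate 2 stood far above the others for the miR-193-5p probe, at 705. Each gap to the next sample of its run exceeded the 95% critical value of Dixon's test for 8 samples. These gaps were taken on normalized counts and not on the log2 scale of the fits, which draws high values closer together. The flags therefore speak for the scale of normalized counts. Of 24 groups of samples examined in this way, 3 were past it. Chance alone gives about 1 in 20 for a group, but that rate does not apply to these 3, since each run pools the 4 days and the probes were chosen as higher on day 23. Both samples had the widest step between low values of their run (2.91 and 1.37 normalized counts), and the day 23 levels without them are given above. No group of 4 samples of one day held such a sample.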

How the results depend on the processing

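Of 589 recomputed values, 554 were classed as the same. For tested values this meant the same direction and side of the threshold. For day 23 differences, levels and background shares it meant a change smaller than the SD, and for numbers of calls a similar number. Some could not change, since leaving out a sample of a day not compared leaves the difference as it was. The rest follow, and the cause was not tested. With run 1 alone, the miR-193-5p probe was at -0.57 on day 17 against day 14, and 5, 31 and 1 probes were called for day 17 against 14, day 20 against 14 and day 20 against 17. For day 20 against day 17, the miR-365 probe was at 0.0063 with the bovine-gene mean subtracted and 0.12 with run 2 alone, and the miR-193-5p probe at -0.073 with log2 step held.

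For run 2 against run 1, the miR-365 probe was at 0.45 with the sample median subtracted (adjusted p = 0.0842), 0.055 with the bovine-gene mean subtracted, -0.17 after quantile normalization and 0.088 with log2 step held. The miR-193-5p probe was at 0.48, 0.62 and 0.46 under the last 3, and calls numbered 65 and 94 under the first 2 of those against 170. The correlation was 0.77 and 0.99 within runs and 0.83 without day 23, designs with few arrangements.

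Without the column of widest step in each run, the day 23 differences from days 14, 17 and 20 were 0.64, 0.33 and 0.33 (miR-365) and 0.35, 0.23 and -0.069 (miR-193-5p). With log2 step held, those from day 17 were 0.26 and 0.24. Against the 20 dimmest probes, the miR-365 probe lay above 100% in the median sample, against 97.4% of those without a bovine gene.

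Leaving out 1 sample moved the miR-193-5p difference of day 17 from day 14 between -0.15 (without day 17 replicate 3; -0.12 without day 14 replicate 3) and 0.41, and the miR-365 difference of day 20 from day 17 between -0.18 and 0.21. It moved the day 23 difference from day 14 between 0.96 and 1.53 (miR-365) and between 0.73 and 1.29 (miR-193-5p), and the correlation between 0.83 and 0.93. With the replicate block in place of run, the differences between days cannot change, because every day is in every block. The calls could change and did not (miR-365, day 20 against day 14: 0.32, limma adjusted p = 0.794). Few samples and unknown original counts limit the precision.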
